A study of Mus musculus with 12 samples.

Results

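Co-cultured mouse aggregates were compared with their day 7 controls over the 546 genes for which the authors deposited a level in each of 6 libraries. The set is every row of that table, and all 546 identifiers matched a symbol. The whole series has 12 libraries and lists 1113 genes in this table, in that of a second experiment with a cocktail of factors, or in both. The 3 co-culture libraries came from aggregates of the mouse embryonic stem cell line 129w2 that were co-cultured from day 5 to day 7 with mSMGs, for which the labels give no full name. The 3 control libraries came from aggregates of the same line collected at day 7, for which no co-culture is recorded. All aggregates were started with 3000 cells per well in SFEBq medium, a serum-free medium for floating stem cell aggregates, and grew with Matrigel, a basement membrane extract. Both groups received BMP4 at 2 ng/ml on day 3, basic FGF at 25 ng/ml and retinoic acid at 1 µM on day 4, and both were moved to new plates on day 5. A single stem cell line was used. The labels do not say whether the libraries of a group came from separate cultures, so p-values cover the spread between these libraries alone, which may be a technical one. Whether RNA of the mSMGs entered the co-culture libraries was not tested. The series title names oral epithelium grown from stem cells and salivary gland progenitors, and the comparison asks which genes of the aggregates differ after co-culture.

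Levels are FPKM, that is fragments counted per length of transcript and per size of library, a unit inferred here because the header of the table names none. Differences are on the log2(FPKM + 1) scale, on which changes of low genes look smaller than they are, and 3 values in a row belong to libraries 1, 2 and 3 of the group named. A pair is the co-culture library and the control library of the same number. The genes had been selected by the authors, on criteria that the sources used here do not state. The values of most, but not all, follow a rule on pairs 1 and 2. In both of these pairs co-culture had at least 2 times the control level for 390 genes, called doubled below, and at most 0.5 times for 109, called halved, and 47 genes were neither. The differences of pairs 1 and 2 therefore describe how the genes were listed and test nothing. The same limit applies to every fit below, since each draws on those pairs. Such a rule takes nothing from pair 3, but the 47 other genes do not follow it, and how they came to be listed is not known. The aggregates were sequenced in bulk, so fewer cells of a type and less RNA per cell cannot be told apart.

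Aggregates exposed to BMP4, FGF and retinoic acid can form surface ectoderm as well as neural tissue, and signals from neighbouring tissue are known to steer budding and branching of embryonic gland epithelium. Growth factor receptors pass their signal through MAP kinases to immediate early genes such as those of the AP-1 and EGR families. Tension on the actin cytoskeleton acts through YAP with TEAD factors and through SRF, whose targets include matricellular proteins and contractile proteins.

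In co-culture libraries 1 and 2 the listed matrix and stratified epithelium genes had higher sums than in the controls, and the listed neural genes lower ones. Co-culture library 3 lay nearer to the controls. The listed matrix and stratified epithelium genes were all doubled, so their higher sums in libraries 1 and 2 follow from how they were listed. Most of the listed neural genes were halved, so their lower sums in these libraries are largely set in the same way. The other genes of these groups had no value here. Summed over the 14 listed matrix genes, the level was 337, 493 and 149.5 FPKM in co-culture, against 119, 57.6 and 107 FPKM in the controls. Over 8 genes of desmosomes, tight junctions and stratified epithelium it was 159.9, 553 and 68.8 FPKM in co-culture, against 57.7, 66.3 and 52.3 FPKM in the controls. Over 8 neural progenitor and neuronal genes, of which 5 were halved and 3 doubled, it was 95.5, 74.9 and 364 FPKM in co-culture, against 220.3, 330.0 and 318 FPKM in the controls. Library 3 had the highest of these neural sums.

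The table could be checked against markers only in part. Of 11 markers of gland epithelium, Krt19 and Sox10 were listed. Their summed level was 29.1, 155 and 13.4 FPKM in co-culture, against 7.88, 11.4 and 7.82 FPKM in the controls. Krt19 made up most of that sum in co-culture, while Sox10 alone was lowest in co-culture 2, below every control. None of 4 oral ectoderm markers, 3 pluripotency markers or 6 leukocyte markers was listed, and their levels were not analysed here. Of 4 myoepithelial markers, Acta2, Cnn1 and Tagln were listed, at a summed 26.4, 267 and 1.40 FPKM in co-culture and 1.85, 8.41 and 1.47 FPKM in the controls. Of 8 endothelial markers, Flt1, Kdr and Tek were listed, summing to 10.2, 42.1 and 1.65 FPKM in co-culture and 3.89, 1.63 and 0.792 FPKM in the controls. Of 7 mesenchymal markers only Col3a1 was listed, at 1.101, 1.49 and 0.0298 FPKM in co-culture and 0.195, 0.302 and 0.0782 FPKM in the controls. Of 6 neural progenitor markers, Fabp7 and Hes5 were listed, with a summed level of 49.8, 25.8 and 269 FPKM in co-culture and 155, 274 and 182 FPKM in the controls. Co-culture library 2 lay outside the range of the controls in each of these 5 values, and co-culture library 3 was the co-culture library nearest to them. The part of these cell types in the gene groups below was not tested.

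Levels differed among the 3 co-culture libraries. Because most of the genes follow a rule on pairs 1 and 2, larger differences there than in pair 3 are partly set by how they were listed. The values below are a description. Among the 390 doubled genes the highest of all 6 libraries was co-culture 2 for 282 genes, co-culture 1 for 97, co-culture 3 for 6 and control 3 for 5. Their median difference was 0.92 in pair 1, 1.42 in pair 2 and 0.21 in pair 3. Among the 109 halved genes the lowest library was co-culture 2 for 74 and co-culture 1 for 25, and the medians were -0.80, -1.18 and 0.01. Pair 2 showed the larger difference for 251 of 296 tested doubled genes and for 67 of 84 tested halved genes. In the 47 other genes the medians were -0.03, -0.31 and 0.13.

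Co-culture library 3 was set on a scale where the mean of the controls is 0 and the mean of co-culture libraries 1 and 2 is 1, for genes whose distance on the log2 scale was at least 1. This choice of genes, made on libraries 1 and 2, itself draws library 3 towards 0. Over 237 such doubled genes its median position was 0.103, with quartiles at -0.0426 and 0.300. It lay above 0.5 for 22 of them and below 0 for 74. Over 45 halved genes the median was 0.0829, with 5 above 0.5 and 17 below 0. Among the genes with a position above 0.5 were Igfbp2, the sugar metabolism genes Aldoc, Pfkp and Gbe1, and the collagen hydroxylase gene P4ha2. In each of these control 3 was the highest control. Lpar6 and Gm28036 also had such a position, although co-culture 3 lay below control 3, at 7.96 against 8.20 FPKM and at 11.8 against 16.5 FPKM. Aldoc, a glycolytic aldolase, was at 7.71, 10.4 and 14.3 FPKM in co-culture, against 2.46, 2.62 and 7.16 FPKM in the controls. Here library 3 was the highest of all 6, and the groups did not overlap. Gbe1, the branching enzyme of glycogen synthesis, was at 39.4, 26.8 and 36.8 FPKM in co-culture, against 15.3, 8.86 and 20.2 FPKM in the controls, again without overlap. At the other end, Junb, an AP-1 subunit, was at 40.8, 37.4 and 3.75 FPKM in co-culture, against 9.21, 9.88 and 2.65 FPKM in the controls. Co-culture 3 lay below controls 1 and 2 there.

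**Figure D1:**
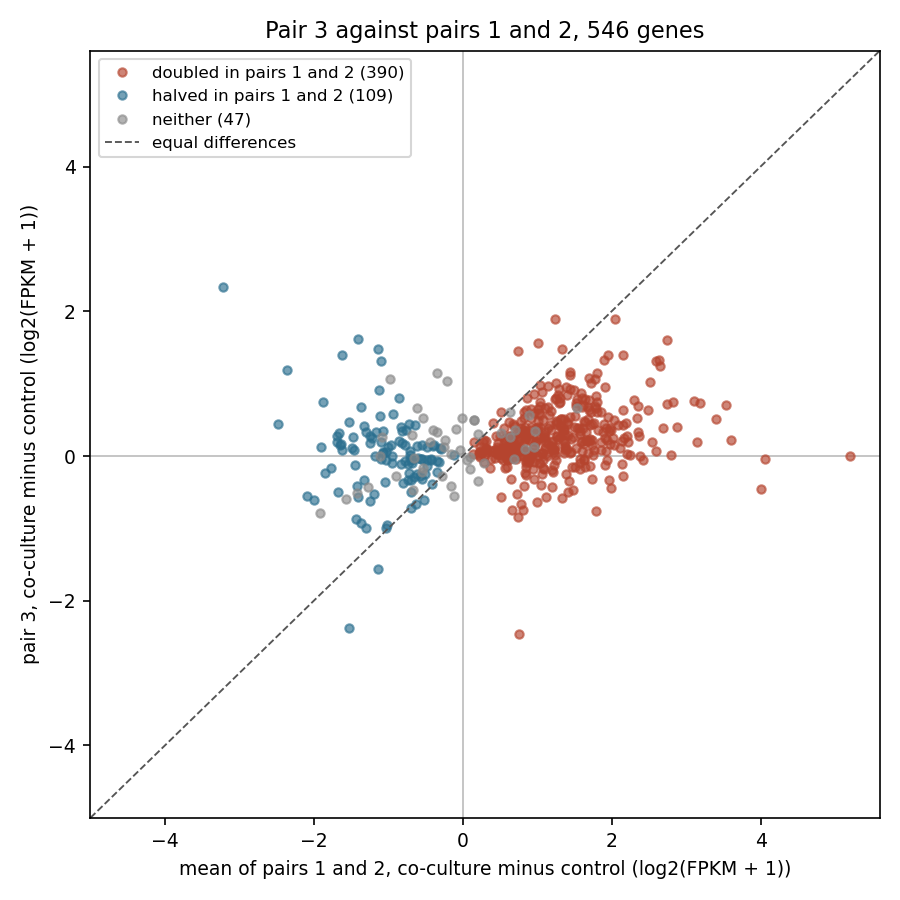
Each point is 1 of 546 genes. The x axis gives the mean difference of pairs 1 and 2 and the y axis the difference in pair 3, both co-culture minus control on the log2(FPKM + 1) scale. Colours mark the 390 doubled, 109 halved and 47 other genes, and the dashed line marks equal differences. The doubled and halved genes follow a rule on pairs 1 and 2, from which the x axis is made, and the 47 others do not. On the y axis most genes lie near 0, with pair 3 medians of 0.21 for doubled and 0.01 for halved genes.

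Over all 546 genes, 394 were higher in co-culture in pair 3 (72.2%), 134 were at least doubled there (24.5%) and 31 at least halved (5.68%). Of the doubled genes, 311 were higher in pair 3 and 117 were doubled in all 3 pairs. In pair 3, 54 of the halved genes were lower and 55 higher, and 16 were halved in all 3 pairs. Control 3 was itself low, at a median of -0.07 from the mean of controls 1 and 2 over doubled genes, -0.29 over halved and -0.25 over the other genes. The part of this low control in the pair 3 counts was not tested. The co-culture libraries lay above all 3 controls for 165 of 546 genes (30.2%) and below all of them for 25 (4.58%).

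Fitted across the 425 genes with a mean of at least 1 FPKM in either group, limma called 0 genes at a Benjamini-Hochberg adjusted p under 0.05, 0% in either direction. The lowest adjusted p was 0.209, 86 genes had an unadjusted p under 0.05, and the median fitted difference was 0.83. Once the replicate number was added to the fit as a block, 38 genes were called higher (8.94%) and 1 lower (0.235%), with 179 at an unadjusted p under 0.05. Leaving out co-culture library 3 moved the calls to 284 higher (63.3%) and 46 lower (10.2%) of 449 genes. Slc2a3 was the 1 gene called without control library 1. Below, a gene is said to have risen or fallen only where the fit with the block called it. Its fitted difference, standard error and adjusted p come from that fit. Both words are labels for such calls and do not state an effect of co-culture. The block pairs libraries by number, and most of the genes follow a rule on such pairs. The adjusted p-values with the block are therefore descriptions and test nothing. Each gene so labelled had an adjusted p of 0.209 or more without the block.

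**Figure D2:**
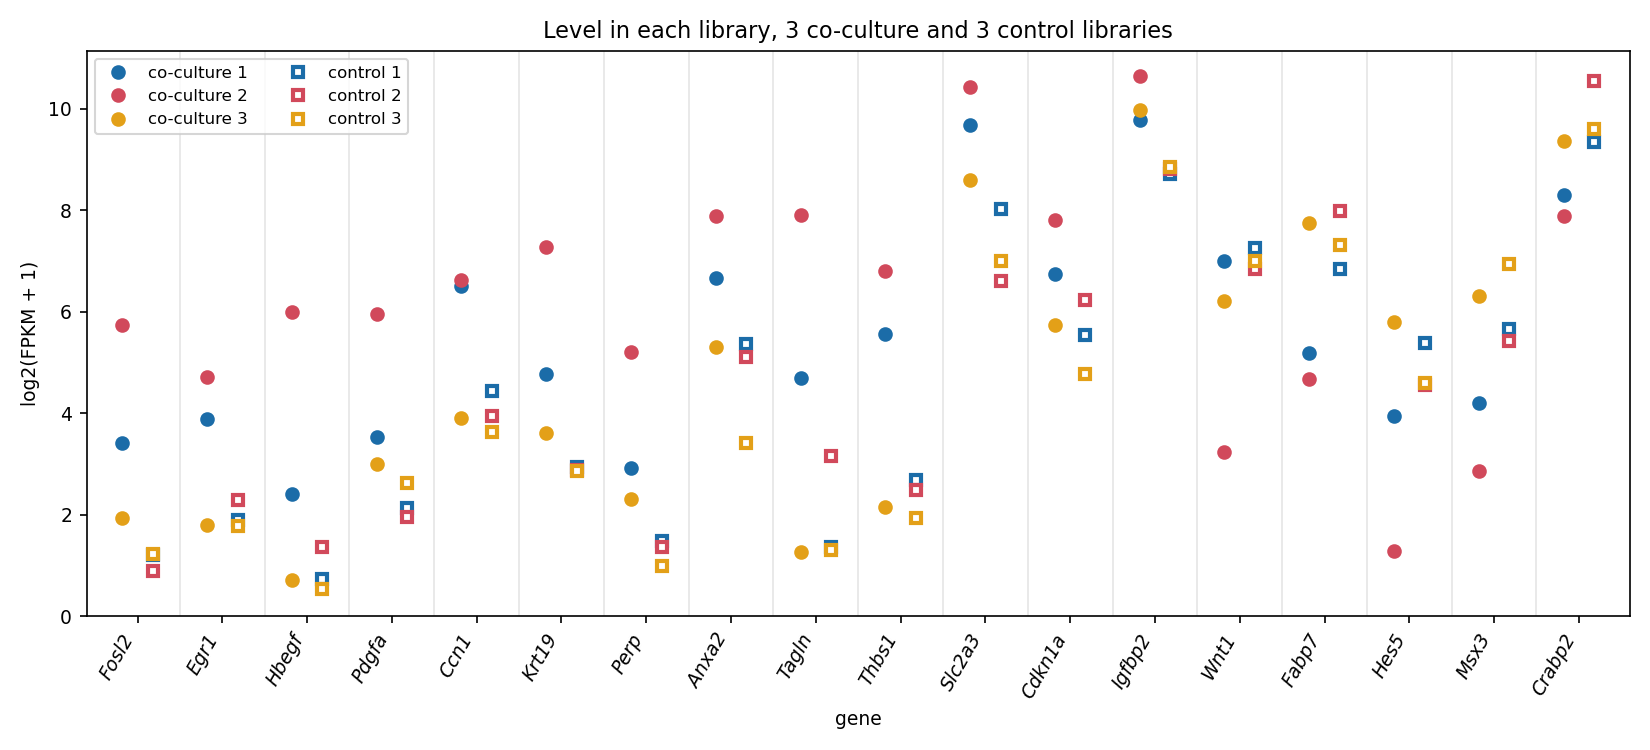
Level of 18 genes in each library, as log2(FPKM + 1) on the y axis. Filled circles are the 3 co-culture libraries and open squares the 3 controls, with 1 colour per replicate number. From Fosl2 to Cdkn1a the red circle of co-culture 2 is the highest point, and for Wnt1, Fabp7, Hes5, Msx3 and Crabp2 it is the lowest.

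The immediate early genes were among the groups with higher levels in co-culture libraries 1 and 2. Of a list of 29 such genes, 10 were in the table, and all 10 belonged to the doubled genes. Their medians were 1.22, 2.13 and 0.42 in pairs 1, 2 and 3. Those over the 390 doubled genes were 0.92, 1.42 and 0.21, and those over all genes 0.71, 1.01 and 0.16. Fosl2 (ENSMUSG00000029135, chromosome 5, 32135801 to 32157842, plus strand, GRCm38), an AP-1 transcription factor, was at 9.699, 52.3 and 2.799 FPKM in co-culture, against 1.29, 0.843 and 1.33 FPKM in the controls. All 3 co-culture libraries lay above all controls, and Fosl2 rose (log2 difference 2.59, SE 0.59, limma adjusted p = 0.00549 with the block). The other 7 with a test were not called. Egr1, a zinc finger factor induced by MAP kinase signals, was at 13.8, 25.2 and 2.46 FPKM in co-culture and 2.74, 3.89 and 2.402 FPKM in the controls. Co-culture 3 lay between the controls. Fos, the founding AP-1 subunit, was at 31.1, 19.2 and 4.68 FPKM in co-culture and 12.4, 3.49 and 1.83 FPKM in the controls, and Klf6, a Krüppel-like factor, at 25.8, 63.97 and 6.12 FPKM in co-culture and 11.8, 5.49 and 4.197 FPKM in the controls. In both, control 1 exceeded co-culture 3. Maff, a small MAF factor, was at 16.6, 57.6 and 6.05 FPKM in co-culture and 5.52, 12.7 and 4.16 FPKM in the controls, and the orphan nuclear receptor Nr4a1 at 7.396, 23.1 and 3.32 FPKM in co-culture and 2.71, 2.59 and 4.44 FPKM in the controls. For Nr4a1 co-culture 3 was below its own control. Egr2, Egr3 and Arc, a synaptic protein, were low, with highest library values of 0.778, 0.938 and 2.99 FPKM.

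Of 15 genes of MAP kinase feedback and the FGF response 4 were listed (Spry1, Spry2, Phlda1 and the ETS transcription factor gene Etv5), and 0 of the 4 were called. Spry1, a Sprouty inhibitor of receptor tyrosine kinase signalling, was at 8.97, 28.6 and 6.46 FPKM in co-culture, against 2.88, 6.12 and 5.36 FPKM in the controls, above all controls in each library. Phlda1, a pleckstrin homology protein induced by growth factors, was at 21.02, 125 and 14.99 FPKM in co-culture, against 7.11, 16.3 and 18.3 FPKM in the controls, where co-culture 3 lay between the controls. Fgf15, an FGF ligand of the developing brain, was at 2.701, 0.453 and 5.61 FPKM in co-culture, against 15.2, 5.04 and 8.73 FPKM in the controls. Libraries 1 and 2 lay below all controls there, and library 3 lay between them. The difference of -1.58 was not called (limma adjusted p = 0.0593 with the block).

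Ligands and receptors of growth factor pathways formed the next group. All 4 listed members of the EGF family (Egfr, Hbegf, Tgfa and Nrg1, of 18) were doubled genes, as were 390 of all 546. Of these 4, 2 were called higher, against 8.94% of all tested genes, halved and other genes included. Hbegf, a membrane-bound EGF receptor ligand, was at 4.32, 62.5 and 0.639 FPKM in co-culture, against 0.666, 1.58 and 0.4398 FPKM in the controls. Co-culture 2 stood far above co-culture 1, and co-culture 3 was below controls 1 and 2. Hbegf rose (log2 difference 2.16, SE 0.58, limma adjusted p = 0.0128 with the block). Nrg1, a ligand of the ERBB receptors, was at 6.77, 29.9 and 2.32 FPKM in co-culture, against 2.63, 1.596 and 1.303 FPKM in the controls, and rose (log2 difference 1.73, SE 0.58, limma adjusted p = 0.0423 with the block), although co-culture 3 lay below control 1. The receptor gene Egfr was at 2.83, 8.71 and 0.478 FPKM in co-culture and 1.38, 0.645 and 0.541 FPKM in the controls and its ligand gene Tgfa at 0.752, 6.97 and 0.394 FPKM in co-culture and 0.349, 0.265 and 0.289 FPKM in the controls, neither called.

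Of 42 genes of PDGF, VEGF, Tie and Eph signalling, 10 were in the table. Of these 9 were doubled and 1 was halved. Above all controls lay 4 of the 10, a share near the 30.2% of all genes and the 163 of 390 doubled genes. Of 9 tested, 4 were called higher, against 8.94% of all tested genes, halved and other genes included. Pdgfa, a ligand that acts on mesenchymal receptors, was at 10.5, 60.9 and 7.03 FPKM in co-culture, against 3.402, 2.87 and 5.16 FPKM in the controls. The groups did not overlap and Pdgfa rose (log2 difference 1.92, SE 0.60, limma adjusted p = 0.03202 with the block). Pdgfb, its paralogue, was at 3.600, 14.8 and 0.175 FPKM in co-culture, against 0.3900, 0.432 and 0.124 FPKM in the controls. It rose in the same fit (log2 difference 1.75, SE 0.50, limma adjusted p = 0.0188 with the block), with co-culture 3 below controls 1 and 2. The VEGF receptor Flt1 was at 1.56, 7.64 and 0.264 FPKM in co-culture, against 0.2095, 0.104 and 0.0668 FPKM in the controls, all co-culture libraries above all controls, and rose (log2 difference 1.43, SE 0.44, limma adjusted p = 0.0297 with the block). Kdr, the main signalling receptor of VEGF, was at 7.67, 32.6 and 1.15 FPKM in co-culture and 3.58, 1.42 and 0.706 FPKM in the controls and was not called. The ephrin receptor Epha2 was at 16.9, 42.00 and 5.24 FPKM in co-culture, against 3.81, 5.63 and 2.65 FPKM in the controls and rose (log2 difference 1.79, SE 0.57, limma adjusted p = 0.0373 with the block), with control 2 above co-culture 3. Its relative Epha1 went the other way, with 0.817, 0.505 and 0.564 FPKM in co-culture and 1.84, 1.94 and 1.02 FPKM in the controls, and every co-culture library below every control. Edn1, the endothelin precursor, was at 4.33, 24.6 and 0.602 FPKM in co-culture, against 0.146, 1.49 and 0.5804 FPKM in the controls and rose (log2 difference 1.87, SE 0.54, limma adjusted p = 0.01998 with the block), with co-culture 3 within the range of the controls. Csf1, a macrophage growth factor, was at 5.82, 14.5 and 2.33 FPKM in co-culture, against 1.74, 1.08 and 2.08 FPKM in the controls, above all controls and not called.

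YAP and TEAD target genes made up 10 of 35 listed symbols. All 10 were doubled genes and all 10 were higher in pair 3, where 72.2% of all genes and 311 of the 390 doubled genes were. Their medians were 1.25, 2.38 and 0.27, the summed level was 494, 923 and 194 FPKM in co-culture and 175, 227 and 138 FPKM in the controls, and 1 of 10 was called. Ccn1, a matricellular protein, was at 89.5, 97.4 and 14.01 FPKM in co-culture, against 20.6, 14.4 and 11.4 FPKM in the controls. Co-culture 3 lay between the controls, and the fitted difference of 1.67 was not called (limma adjusted p = 0.05702 with the block). Ccn2, its relative also known as connective tissue growth factor, was at 102, 294 and 37.03 FPKM in co-culture and 40.02, 51.6 and 30.98 FPKM in the controls. Amotl2, an angiomotin that binds YAP, was at 112, 129.9 and 40.2 FPKM in co-culture and 39.7, 45.5 and 33.4 FPKM in the controls. For both genes libraries 1 and 2 exceeded every control. Arhgap29, a GTPase-activating protein, was at 25.3, 73.3 and 16.4 FPKM in co-culture, against 10.1, 4.58 and 10.1 FPKM in the controls, without overlap, and rose (log2 difference 1.87, SE 0.60, limma adjusted p = 0.0369 with the block). Lats2, a kinase that inhibits YAP, was at 15.3, 29.1 and 8.29 FPKM in co-culture, against 6.45, 5.27 and 7.06 FPKM in the controls, also without overlap and not called, but it shares a strand with the overlapping gene model Gm49361 and its level is uncertain. Ajuba, a LIM protein that binds LATS kinases, was at 120.3, 228 and 69.4 FPKM in co-culture and 46.98, 97.7 and 38.1 FPKM in the controls. Its co-culture library 3 lay below control 2.

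Promoter sequence was read for the genes that matched a start site in the RefSeq table (GRCm38.p6), from 250 bases before to 50 bases after the start, written 5′ to 3′ along the gene. Of 546 genes 402 matched, with 530 windows. The TEAD motif GGAATG (on either strand) was in 18.8% of 382 windows of doubled genes, 14.3% of 98 windows of halved genes and 14.7% of all 32851 windows in the table. The AP-1 motif TGANTCA (both strands) was in 8.90%, 6.12% and 7.81% of the same sets. The CArG box, the motif of SRF, was in 2.36%, 1.02% and 1.63%, the CRE motif TGACGTCA in 2.36%, 2.04% and 1.79%, and the E-box CACGTG in 9.69%, 9.18% and 7.15%. For each motif the share in windows of doubled genes lay above that of all windows, and no difference was tested. Of the 10 YAP and TEAD targets, 8 had a window and 6 of these held GGAATG. That count is per gene, over any of its windows, and cannot be set against the shares per window. Below are the windows of Ccn1 and Amotl2 with the TEAD motif, of the annexin gene Anxa2 and the cornified envelope gene Sprr1a with the AP-1 motif, and of the calponin gene Cnn2 with a CArG box. They are shown because the levels of these genes carry the patterns described, and capitals mark the motif named, as read on the strand shown. A match is no evidence that a factor was bound.
Ccn1 chr3:145649936-145650235 (minus strand): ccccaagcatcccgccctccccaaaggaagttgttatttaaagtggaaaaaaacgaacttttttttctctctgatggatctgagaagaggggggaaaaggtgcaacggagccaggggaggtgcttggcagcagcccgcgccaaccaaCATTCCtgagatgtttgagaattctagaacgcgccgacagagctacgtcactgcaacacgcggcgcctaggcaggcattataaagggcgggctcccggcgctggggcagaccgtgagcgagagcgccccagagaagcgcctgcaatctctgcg
Amotl2 chr9:102717554-102717853 (plus strand): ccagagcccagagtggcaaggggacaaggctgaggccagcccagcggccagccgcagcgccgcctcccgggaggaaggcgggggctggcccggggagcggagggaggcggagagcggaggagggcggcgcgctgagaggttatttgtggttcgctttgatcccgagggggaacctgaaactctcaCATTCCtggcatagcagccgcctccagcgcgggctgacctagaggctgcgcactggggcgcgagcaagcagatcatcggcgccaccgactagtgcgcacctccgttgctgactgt
Anxa2 chr9:69453433-69453732 (plus strand): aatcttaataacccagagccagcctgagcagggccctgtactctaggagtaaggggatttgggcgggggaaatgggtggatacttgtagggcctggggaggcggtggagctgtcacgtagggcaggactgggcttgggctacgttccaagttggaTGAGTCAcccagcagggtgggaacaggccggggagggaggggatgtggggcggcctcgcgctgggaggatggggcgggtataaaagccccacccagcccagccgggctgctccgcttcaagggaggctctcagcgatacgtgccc
Sprr1a chr3:92485832-92486131 (minus strand): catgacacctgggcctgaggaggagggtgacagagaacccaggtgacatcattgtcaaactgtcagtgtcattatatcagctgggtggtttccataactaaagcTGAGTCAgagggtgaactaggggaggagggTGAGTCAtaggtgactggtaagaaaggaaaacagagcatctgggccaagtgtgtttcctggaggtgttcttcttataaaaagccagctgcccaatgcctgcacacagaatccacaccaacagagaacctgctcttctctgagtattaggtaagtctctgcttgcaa
Cnn2 chr10:79988350-79988649 (plus strand): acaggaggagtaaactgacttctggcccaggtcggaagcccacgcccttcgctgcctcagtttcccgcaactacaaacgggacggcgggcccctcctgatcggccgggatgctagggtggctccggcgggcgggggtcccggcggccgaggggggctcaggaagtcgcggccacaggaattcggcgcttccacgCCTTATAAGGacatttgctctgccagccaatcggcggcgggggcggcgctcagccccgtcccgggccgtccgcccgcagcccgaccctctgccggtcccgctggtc

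Epithelial genes were highest in co-culture library 2. Of 40 keratin and simple epithelium genes 7 were listed, all of them doubled, with medians of 0.73, 2.51 and 0.24. Krt19 (ENSMUSG00000020911, chromosome 11, 100140810 to 100148665, minus strand), a keratin of ducts and simple epithelia, was at 26.2, 154 and 11.2 FPKM in co-culture, against 6.705, 6.37 and 6.22 FPKM in the controls. The controls lay close together and each co-culture library exceeded them, and Krt19 rose (log2 difference 2.32, SE 0.61, limma adjusted p = 0.0115 with the block). Krt20, a keratin of differentiated intestinal and urothelial cells, was at 1.73, 12.4 and 0.277 FPKM in co-culture, against 0.717, 0.387 and 0 FPKM in the controls and rose (log2 difference 1.43, SE 0.48, limma adjusted p = 0.04498 with the block). In this gene co-culture 3 lay below controls 1 and 2. St14, the protease matriptase, was at 4.32, 10.1 and 1.39 FPKM in co-culture and 1.33, 0.9501 and 0.575 FPKM in the controls, with all co-culture libraries above all controls and no call. Klf5, a factor of proliferating epithelium, was at 6.86, 20.4 and 1.47 FPKM in co-culture and 2.23, 2.26 and 2.37 FPKM in the controls, where co-culture 3 was the lowest of the 6.

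Genes of desmosomes, tight junctions and stratified epithelium were listed for 8 of 54 symbols. All 8 were doubled genes and 5 were called higher, against 8.94% of all tested genes, halved and other genes included. The calls draw on pairs 1 and 2, on which doubled genes were listed, so this count is a description. Their medians of 1.41, 3.33 and 0.35 included the highest pair 2 median of any group with at least 3 genes. Perp, a desmosome-associated protein, was at 6.54, 35.7 and 3.96 FPKM in co-culture, against 1.802, 1.57 and 0.982 FPKM in the controls, without overlap, and rose (log2 difference 2.19, SE 0.57, limma adjusted p = 0.0115 with the block). Anxa1, an annexin of squamous epithelium, was at 3.99, 51.8 and 0.423 FPKM in co-culture, against 0.596, 0.475 and 0 FPKM in the controls and rose (log2 difference 2.44, SE 0.57, limma adjusted p = 0.00549 with the block). Its level in co-culture 2 stood far above that in co-culture 1, and co-culture 3 lay below controls 1 and 2. Anxa2, a membrane-binding annexin, was at 100.4, 236 and 38.6 FPKM in co-culture, against 39.9, 33.4 and 9.63 FPKM in the controls. It rose (log2 difference 1.997, SE 0.57, limma adjusted p = 0.0188 with the block), and its pair 3 difference of 1.897 was among the largest in that pair, with control 3 well below the other controls and co-culture 3 just below control 1. Sprr1a, a precursor of the cornified envelope, was at 1.697, 14.1 and 0.144 FPKM in co-culture, against 0, 0.206 and 0 FPKM in the controls, listed at 0 in controls 1 and 3, and rose (log2 difference 1.76, SE 0.46, limma adjusted p = 0.0115 with the block). Lgals3, the lectin galectin-3, was at 6.64, 76.1 and 1.04 FPKM in co-culture, against 0.759, 3.08 and 0.233 FPKM in the controls and rose (log2 difference 2.36, SE 0.58, limma adjusted p = 0.00774 with the block), although control 2 exceeded co-culture 3. S100a11, a calcium-binding protein, was at 36.4, 125 and 23.4 FPKM in co-culture and 13.3, 26.6 and 40.2 FPKM in the controls and was not called, with control 3 above co-culture 1. Regulators of oral and surface ectoderm were few, 3 of 32, and 0 were called. Eda, the ligand of ectodermal organ development, was at 0.967, 0.861 and 1.65 FPKM in co-culture and 2.44, 2.37 and 1.85 FPKM in the controls, with every co-culture library below every control.

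Of 36 salivary progenitor, acinar and duct genes, 7 were listed, and 5 of them were neither doubled nor halved in both pairs. Krt19 was the only one of 5 tested that was called. Sox10, a factor of gland progenitors and neural crest, was at 2.92, 0.291 and 2.18 FPKM in co-culture and 1.17, 4.99 and 1.59 FPKM in the controls. Its lowest value was in co-culture 2 and its highest in control 2. Chrm3, a muscarinic receptor, was at 2.13, 2.28 and 0.147 FPKM in co-culture and 1.29, 0.398 and 0.06998 FPKM in the controls, with control 1 above co-culture 3.

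Contractile genes of myoepithelium and smooth muscle were listed for 8 of 38 symbols, all doubled, with medians of 1.28, 2.03 and 0.24. Tagln (ENSMUSG00000032085, chromosome 9, 45929619 to 45936058, minus strand), the actin-binding protein transgelin, was at 25.03, 239.9 and 1.404 FPKM in co-culture, against 1.56, 7.85 and 1.47 FPKM in the controls. Co-culture 3 was the lowest of all 6 libraries, and Tagln rose in the fit with the block (log2 difference 2.69, SE 0.62, limma adjusted p = 0.00549 with the block). Acta2, smooth muscle actin, was at 0.597, 25.1 and 0 FPKM in co-culture, against 0.142, 0.354 and 0 FPKM in the controls, listed at 0 in both libraries numbered 3. It rose in the same fit (log2 difference 1.58, SE 0.50, limma adjusted p = 0.0324 with the block), and among all genes it showed the largest excess of pair 2 over pair 1, followed by Anxa1, Rnf128, Hbegf and Kdr. Tpm1, a tropomyosin, was at 131, 323 and 76.8 FPKM in co-culture and 48.5, 120.3 and 62.6 FPKM in the controls, and Cnn2, a calponin, at 54.4, 84.5 and 11.9 FPKM in co-culture and 16.5, 24.99 and 7.08 FPKM in the controls. Neither was called. Myh9, a non-muscle myosin heavy chain, was at 74.98, 122 and 20.97 FPKM in co-culture and 29.9, 21.9 and 18.2 FPKM in the controls, with co-culture 3 within the controls.

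Actin regulators and focal adhesion proteins numbered 9 of 47, with medians of 1.06, 1.67 and 0.49. All 9 were doubled genes and were higher in pair 3 as well, where 72.2% of all genes and 311 of the 390 doubled genes were. Ahnak, a large scaffold protein at the membrane, was at 11.6, 12.2 and 1.097 FPKM in co-culture, against 1.87, 1.202 and 0.303 FPKM in the controls and rose (log2 difference 1.801, SE 0.54, limma adjusted p = 0.0257 with the block). Rhob, a small GTPase, was at 100.3, 255 and 68.7 FPKM in co-culture and 43.5, 87.6 and 48.01 FPKM in the controls, and Lmna, the nuclear lamin A/C, at 8.69, 16.4 and 2.61 FPKM in co-culture and 3.64, 4.96 and 1.08 FPKM in the controls. Both were uncalled, and in both control 2 lay above co-culture 3. Cavin1, a coat protein of caveolae, was at 10.6, 28.03 and 2.17 FPKM in co-culture, against 2.35, 1.72 and 0.272 FPKM in the controls and rose (log2 difference 2.17, SE 0.56, limma adjusted p = 0.0115 with the block), with control 1 above co-culture 3.

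Of 72 matrix genes 14 were listed, and all 14 were doubled. Medians were 1.20, 2.65 and 0.14, where all genes had 0.71, 1.01 and 0.16 and doubled genes 0.92, 1.42 and 0.21. The pair 3 median was thus no higher than that of either set. Of 12 tested, 4 were called higher, against 8.94% of all tested genes, halved and other genes included. Thbs1 (ENSMUSG00000040152, chromosome 2, 118111876 to 118127133, plus strand), an extracellular glycoprotein that activates TGF-beta, was at 46.5, 110.3 and 3.46 FPKM in co-culture, against 5.38, 4.62 and 2.83 FPKM in the controls. Libraries 1 and 2 exceeded the highest control several-fold, co-culture 3 lay within the controls, and Thbs1 rose (log2 difference 2.47, SE 0.61, limma adjusted p = 0.00774 with the block). Tnc, the glycoprotein tenascin-C, was at 3.43, 8.52 and 0.0599 FPKM in co-culture, against 0.238, 0.182 and 0.0995 FPKM in the controls and rose (log2 difference 1.598, SE 0.46, limma adjusted p = 0.01998 with the block), with co-culture 3 the lowest library. Col12a1, a fibril-associated collagen, was at 6.03, 20.4 and 1.01 FPKM in co-culture, against 0.863, 0.484 and 0.518 FPKM in the controls. The groups did not overlap and Col12a1 rose (log2 difference 2.06, SE 0.55, limma adjusted p = 0.0116 with the block). P4ha2, a prolyl hydroxylase of collagen, was at 28.6, 49.2 and 30.3 FPKM in co-culture, against 8.88, 6.59 and 10.8 FPKM in the controls, the member of the list in which co-culture 3 was closest to libraries 1 and 2, and rose (log2 difference 1.903, SE 0.58, limma adjusted p = 0.0282 with the block). Plod2, a lysyl hydroxylase, was at 92.1, 135 and 56.2 FPKM in co-culture, against 40.8, 17.1 and 39.5 FPKM in the controls, and Loxl2, a lysyl oxidase, at 96.3, 86.6 and 45.9 FPKM in co-culture, against 39.6, 13.6 and 43.6 FPKM in the controls. In both genes every co-culture library exceeded every control and no call was made. Smoc2, a matricellular calcium-binding protein, was at 6.97, 8.68 and 2.25 FPKM in co-culture, against 0.7601, 1.21 and 1.096 FPKM in the controls and rose (log2 difference 1.65, SE 0.53, limma adjusted p = 0.0381 with the block).

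**Figure D3:**
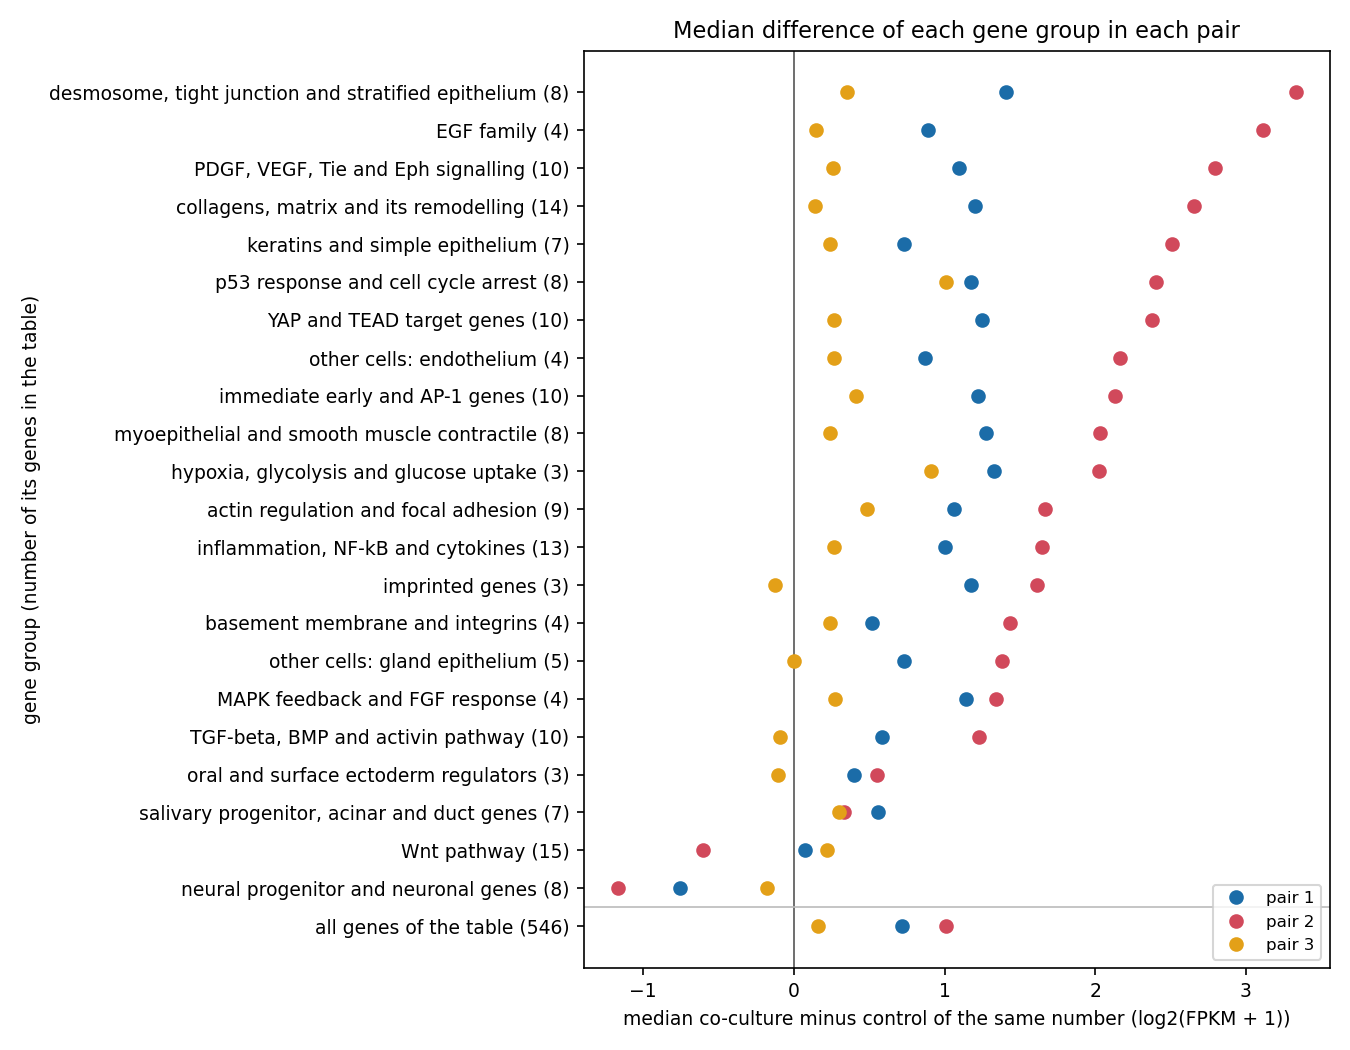
Median difference of each gene group with at least 3 genes in the table, co-culture minus control on the log2(FPKM + 1) scale (x axis), in pairs 1, 2 and 3 (colours). The bottom line gives all 546 genes. Pair 2 lies farthest to the right for most groups, with a median of 3.33 for stratified epithelium, and pair 3 reaches 1.01 for the p53 response and 0.91 for the 3 genes of hypoxia, glycolysis and glucose uptake. Neural progenitor genes lie left of 0 in all 3 pairs.

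The lists of hypoxia, glycolysis and glucose uptake and of the p53 response had larger pair 3 medians than the table as a whole. They were 0.91 and 1.01, against 0.16 over all genes and 0.21 over doubled genes. The first list held only Aldoc, Pfkp and Slc2a3, 3 of 43 symbols, and its median is the value of Aldoc. Slc2a3, a high-affinity glucose transporter, was at 815, 1384 and 386 FPKM in co-culture, against 259, 96.4 and 127 FPKM in the controls, and rose (log2 difference 2.36, SE 0.53, limma adjusted p = 0.00549 with the block). Each co-culture library exceeded each control. Pfkp, a phosphofructokinase, was at 26.6, 30.3 and 18.6 FPKM in co-culture, against 10.4, 6.68 and 15.8 FPKM in the controls, without overlap and not called. Of 38 p53 response and arrest genes 8 were listed, with medians of 1.17, 2.40 and 1.01. All 8 were doubled, as were 390 of all 546 genes. All 8 were higher in pair 3, where 72.2% of all genes and 311 of the 390 doubled genes were. In that pair 5 were doubled, against 24.5% of all genes and 117 of the 390 doubled genes. Their summed level was 259, 605 and 156 FPKM in co-culture, against 111, 153 and 66.1 FPKM in the controls. Control 3 was thus the lowest library, and co-culture 3 lay close to control 2. Trp53inp1, a p53-induced stress protein, was at 47.99, 73.04 and 29.4 FPKM in co-culture, against 18.9, 11.1 and 10.5 FPKM in the controls and rose (log2 difference 1.77, SE 0.58, limma adjusted p = 0.0396 with the block). Fas, a death receptor, was at 2.22, 4.300 and 0.446 FPKM in co-culture, against 0.307, 0.226 and 0.0742 FPKM in the controls and rose (log2 difference 1.28, SE 0.43, limma adjusted p = 0.0423 with the block). For both the groups did not overlap. Cdkn1a, the cell cycle inhibitor p21, was at 106, 222 and 52.1 FPKM in co-culture and 45.7, 74.2 and 26.4 FPKM in the controls, and Phlda3, an inhibitor of AKT, at 22.8, 96.1 and 32.8 FPKM in co-culture and 9.76, 37.3 and 8.100 FPKM in the controls. Neither was called, and in both control 2 exceeded co-culture 3. Ube2c, a ubiquitin-conjugating enzyme of mitotic exit, was the 1 listed gene of 28 in the proliferation list. It was at 58.8, 61.1 and 149.8 FPKM in co-culture and 137, 161 and 300.2 FPKM in the controls, where libraries 1 and 2 lay below every control and co-culture 3 lay between controls 1 and 2.

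Inflammatory genes and cytokines were listed for 13 of 56 symbols, 12 doubled and 1 halved. Of the 13, 8 lay above all controls, against 30.2% of all genes and 163 of the 390 doubled genes. Tnfrsf12a, the receptor of the cytokine TWEAK, was at 18.5, 96.1 and 4.15 FPKM in co-culture, against 3.43, 11.98 and 1.53 FPKM in the controls and rose (log2 difference 2.02, SE 0.58, limma adjusted p = 0.0188 with the block), with control 2 above co-culture 3. Cxcl1, a chemokine for neutrophils, was at 2.07, 4.62 and 0.729 FPKM in co-culture, against 0.533, 0.146 and 0 FPKM in the controls, above all controls in each library, and rose (log2 difference 1.36, SE 0.43, limma adjusted p = 0.0355 with the block). Cxcl12, a chemokine for CXCR4-bearing cells, was at 6.96, 8.201 and 4.35 FPKM in co-culture, against 1.495, 2.503 and 2.11 FPKM in the controls, without overlap and not called. Il18, an interleukin made by epithelium, was at 0.382, 0.306 and 1.28 FPKM in co-culture and 1.69, 2.08 and 1.35 FPKM in the controls, and here every co-culture library lay below every control. None of the 34 interferon response genes and none of the 20 leukocyte genes on the lists used here was in the table. These lists do not hold every gene of such cells. Cyp1a1, a target of the aryl hydrocarbon receptor, was at 3.26, 3.302 and 0.679 FPKM in co-culture, against 0, 0.184 and 0.281 FPKM in the controls and rose (log2 difference 1.45, SE 0.43, limma adjusted p = 0.0246 with the block). Its relative Cyp1b1 was at 1.15, 2.56 and 0.414 FPKM in co-culture and 0.176, 0.168 and 0.303 FPKM in the controls, also without overlap.

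The remaining genes called higher were Gpc4, Ets1, Rnf128, Slc12a4, Inpp5d and the overlapping gene models Gm49450 and Gm28036. Gpc4, a glypican that binds growth factors, was at 31.3, 75.3 and 6.53 FPKM in co-culture, against 6.51, 5.59 and 3.496 FPKM in the controls, and rose (log2 difference 2.13, SE 0.59, limma adjusted p = 0.0164 with the block). Ets1, a transcription factor of migrating and endothelial cells, was at 24.2, 45.5 and 3.26 FPKM in co-culture, against 4.86, 4.08 and 0.797 FPKM in the controls and rose (log2 difference 2.18, SE 0.57, limma adjusted p = 0.0115 with the block). Co-culture 3 lay just above the controls for Gpc4 and below controls 1 and 2 for Ets1. Rnf128, a ubiquitin ligase, was at 4.59, 34.5 and 2.05 FPKM in co-culture, against 1.798, 0.592 and 0.853 FPKM in the controls and rose (log2 difference 2.07, SE 0.58, limma adjusted p = 0.0183 with the block). Slc12a4, a potassium chloride cotransporter, was at 8.89, 29.5 and 4.28 FPKM in co-culture, against 3.83, 3.46 and 1.11 FPKM in the controls and rose (log2 difference 1.71, SE 0.57, limma adjusted p = 0.0423 with the block). Inpp5d, the phosphatase SHIP1, was at 4.03, 4.84 and 1.85 FPKM in co-culture, against 0.954, 0.422 and 0.346 FPKM in the controls and rose (log2 difference 1.49, SE 0.48, limma adjusted p = 0.0383 with the block). In these 3 the groups did not overlap. Gm49450, which spans the near-identical tubulin genes Tuba1a and Tuba1b on their strand, was at 24.7, 51.7 and 0 FPKM in co-culture, against 0, 0 and 0 FPKM in the controls. Gm28036, which overlaps Cpne1, Nfs1 and Rbm12 on the same strand, was at 18.5, 15.6 and 11.8 FPKM in co-culture, against 0.0989, 0.132 and 16.5 FPKM in the controls. Both were called, yet the sources used here do not say how reads were divided among overlapping genes, and both values are uncertain. In all, 105 of the 546 genes overlap another protein-coding gene, 40 of them on the same strand. Overlaps on the other strand include those of Tagln, Junb, Pfkp, Ube2c, Epha1, Il18 and Stat3. The strand setting of the library kit is not stated, so these levels are uncertain too.

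Lower levels were fewer. Of 82 genes of neural progenitors and neurons 8 were listed, 5 halved and 3 doubled, with medians of -0.75, -1.17 and -0.18, and 0 were called. Fabp7 (ENSMUSG00000019874, chromosome 10, 57784881 to 57788450, plus strand), a fatty acid binding protein of radial glia, was at 35.3, 24.4 and 215 FPKM in co-culture, against 114, 251 and 158 FPKM in the controls. Co-culture libraries 1 and 2 lay below all controls and library 3 lay between controls 3 and 2 (log2 difference -1.51, limma adjusted p = 0.0692 with the block). Hes5, a Notch target of neural progenitors, was at 14.4, 1.44 and 54.3 FPKM in co-culture, against 40.97, 22.4 and 23.3 FPKM in the controls, and in this gene library 3 was the highest of the 6. Msx3, a dorsal neural tube homeobox gene, was at 17.5, 6.302 and 78.8 FPKM in co-culture, against 49.5, 41.8 and 121 FPKM in the controls, with co-culture 3 between controls 1 and 3. Hoxa4 was the only one of 26 Hox genes in the table, at 11.2, 23.5 and 45.1 FPKM in co-culture and 22.6, 51.1 and 88.4 FPKM in the controls. It was lower in each pair, yet the groups overlapped, and it shares a strand with the overlapping gene Hoxa3. Pou3f1, a POU factor of neural and squamous cells, was at 9.01, 30.8 and 6.69 FPKM in co-culture and 4.04, 4.97 and 3.51 FPKM in the controls, above all controls.

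Wnt pathway genes numbered 15 of 58, and 11 of them were neither doubled nor halved in both pairs, 11 of the 47 such genes. Wnt1, a ligand of the dorsal midline, was at 127, 8.47 and 72.8 FPKM in co-culture, against 151, 113 and 126 FPKM in the controls. Co-culture 2 stood alone, below the next library by a wide margin, and the fitted difference of -1.54 was not called (limma adjusted p = 0.0692 with the block). Wnt3a was at 30.4, 4.295 and 16.2 FPKM in co-culture and 23.8, 25.05 and 7.21 FPKM in the controls, and Axin2, a feedback target of Wnt signalling, at 50.02, 14.5 and 28.6 FPKM in co-culture and 60.2, 26.4 and 33.6 FPKM in the controls. Both had their lowest value in co-culture 2, and the groups overlapped. Wnt8b, a forebrain and midbrain ligand, was at 0.999, 0.123 and 1.84 FPKM in co-culture, against 2.68, 2.85 and 2.58 FPKM in the controls, every co-culture library below every control, at a fitted difference of -0.997 that was not called. Bmp7, a bone morphogenetic protein, was at 56.1, 31.7 and 20.8 FPKM in co-culture and 34.4, 34.6 and 22.3 FPKM in the controls, and Twsg1, a BMP-binding protein, at 41.2, 44.97 and 30.2 FPKM in co-culture and 41.8, 16.4 and 31.1 FPKM in the controls, with overlap in both. Crabp2 (ENSMUSG00000004885, chromosome 3, 87948666 to 87953376, plus strand), a carrier of retinoic acid to its nuclear receptors, was at 316, 237 and 659 FPKM in co-culture, against 650.1, 1501 and 777 FPKM in the controls. Libraries 1 and 2 lay below all controls and library 3 exceeded control 1 (log2 difference -1.31, limma adjusted p = 0.0692 with the block).

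The 8 most negative fitted differences among genes without overlap belonged to Tsacc, Rnaset2a, Nt5c3b, Rtl8c, Lrrc23, Reep6, Wnt8b and Eef1akmt2, with differences of -1.24, -1.24, -1.24, -1.13, -1.04, -1.02, -0.997 and -0.99, and 0 of the 8 were called. Nt5c3b, a nucleotidase, was at 32.5, 16.7 and 45.04 FPKM in co-culture, against 65.00, 104 and 50.5 FPKM in the controls. Rtl8c, a retrotransposon-derived gene, was at 12.5, 7.42 and 11.7 FPKM in co-culture, against 32.7, 22.8 and 17.8 FPKM in the controls. For both, all co-culture libraries lay below all controls. Reep6, a receptor expression enhancer of the endoplasmic reticulum, was at 2.56, 1.79 and 3.67 FPKM in co-culture, against 5.26, 5.66 and 8.28 FPKM in the controls. Rnaset2a overlaps Gm49673, Tsacc overlaps Gm38392 and Eef1akmt2 overlaps Fgfr2 on the same strand, while Nt5c3b and Rtl8c overlap a gene on the other strand, so these levels are uncertain. Gm10273, a predicted gene, was the 1 gene that fell in the fit with the block, at 0.941, 7.46 and 1.74 FPKM in co-culture, against 5.68, 19.4 and 13.2 FPKM in the controls (log2 difference -1.81, SE 0.56, limma adjusted p = 0.03202 with the block), although co-culture 2 lay above control 1.

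The largest pair 3 differences included several genes described above. Gm20521, which overlaps Bcl2l2 and Pabpn1, was listed at 0 in co-culture libraries 1 and 2 and control 3. The other positive differences of that pair were led by Anxa2 at 1.897, Phlda3 at 1.89, Nme3 at 1.61, Slc2a3 at 1.602 and Cpeb4 at 1.57, followed by Gm12355, Inka2, Gm49673 and P4ha2. Nme3, a nucleoside diphosphate kinase, was a halved gene that was higher in pair 3, at 1.05, 2.94 and 3.79 FPKM in co-culture and 5.21, 8.13 and 0.566 FPKM in the controls. It overlaps Mapk8ip3 and Mrps34, 1 of them on the same strand, so its level is uncertain. The negative pair 3 differences were led by Gm49510, at 0.704, 0.675 and 0.853 FPKM in co-culture and 0, 0 and 9.22 FPKM in the controls, which overlaps Pdxp and Sh3bp1, and by Gm10273 at -2.38, Spa17 at -1.56, Ube2c at -0.999 and Reep6 at -0.99, followed by Hoxa4, Tox, Tsacc, Ecscr and Wnt1.

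By level, the table was led by Igfbp2, Tubb5 and Slc2a3 in co-culture and by Tubb5, Crabp2 and Ppia in the controls. Igfbp2 (ENSMUSG00000039323, chromosome 1, 72824503 to 72852474, plus strand), a secreted binder of insulin-like growth factors, was at 873, 1594 and 1002 FPKM in co-culture, against 419.6, 447 and 462 FPKM in the controls. The controls spanned a narrow range and every co-culture library lay above it (log2 difference 1.33, limma adjusted p = 0.0669 with the block, not called). Tubb5, a beta-tubulin, was at 995, 933 and 1186 FPKM in co-culture and 1259, 1287 and 923 FPKM in the controls, with full overlap. Ppia, the abundant isomerase cyclophilin A, was at 214, 322 and 981 FPKM in co-culture and 545, 1262 and 784 FPKM in the controls. It was at least halved in pairs 1 and 2 and higher in pair 3. Peg10, an imprinted retrotransposon-derived gene, was at 758, 737 and 228 FPKM in co-culture and 319, 123 and 248 FPKM in the controls, and Peg3, a paternally expressed zinc finger gene, at 212, 150.2 and 87.3 FPKM in co-culture and 93.4, 48.9 and 104 FPKM in the controls. In both, library 3 lay below controls 1 and 3. Cd24a, a surface glycoprotein, was at 213, 212 and 264 FPKM in co-culture and 243, 219.6 and 388 FPKM in the controls, again with overlap. The other genes of highest level among the 47 (Dazap2, Sdhd, Scpep1, Arvcf and Esd) also had overlapping groups.

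Direction moved with transcript length, taken as the longest transcript of a gene in the basic GENCODE M21 annotation. The median was 3963.5 bases for doubled genes, 2191 for halved genes, 2761 for the 47 others and 2678 over all 21951 protein-coding genes of the annotation. Of 55 genes with a transcript under 1500 bases, 36.4% were doubled and 56.4% halved. From 1500 to 3000 bases the shares were 61.9% and 25.0% of 160 genes, from 3000 to 5000 bases 75.3% and 15.5% of 174, and from 5000 bases 89.2% and 7.01% of 157. Transcripts under 1500 bases were 5.13% of doubled genes, 28.4% of halved genes and 22.9% of all protein-coding genes.

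**Figure D4:**
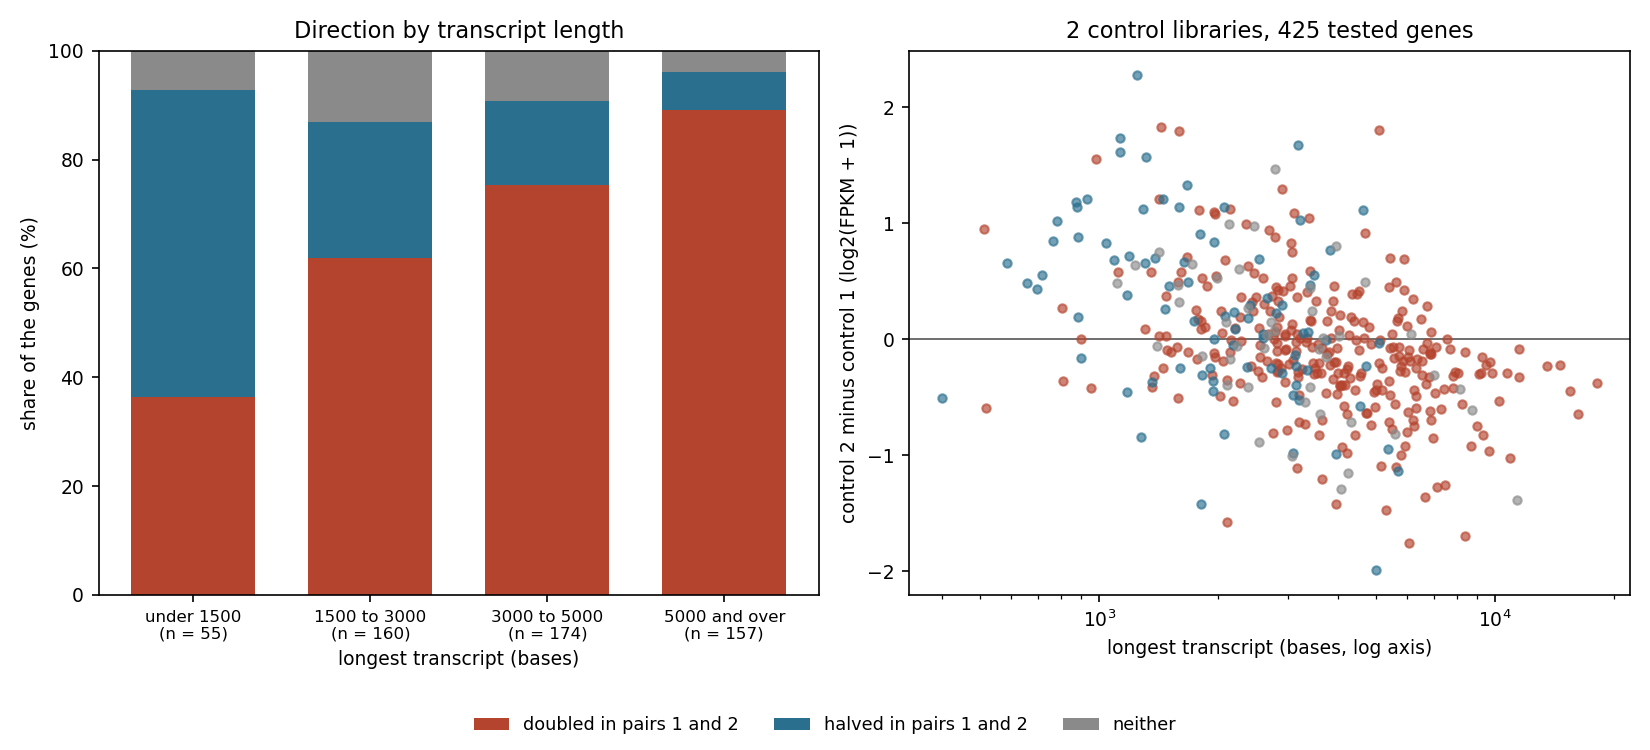
Left, share of doubled, halved and other genes in 4 classes of longest transcript length, with the halved share at 56.4% under 1500 bases and 7.01% from 5000 bases. Right, control 2 minus control 1 on the log2(FPKM + 1) scale against longest transcript length on a log axis, for 425 tested genes in the same colours. The points fall with length, although both libraries are controls.

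Across the 425 tested genes, Spearman's rho between a gene's length and its difference was 0.296 in pair 1, 0.306 in pair 2 and 0.00468 in pair 3. Genes are not independent replicates, and all share the same libraries, so these are descriptions. Control libraries differed by length as well. Control 2 minus control 1 had a rho of -0.475, control 3 minus control 1 of -0.138 and control 3 minus control 2 of 0.247, while co-culture 2 minus co-culture 1 had one of -0.0367. Within the 84 tested halved genes the rho was 0.484, 0.443 and -0.152 in pairs 1, 2 and 3. Within the 296 tested doubled genes it was -0.0910, -0.0808 and -0.136. The part of transcript length in the lower levels was not tested.

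The 31 halved genes with short transcripts had median levels of 2.00, 1.98 and 4.40 FPKM in co-culture and 5.21, 9.34 and 5.97 FPKM in the controls, and 21 of them were higher in pair 3. They include genes of general cell functions. Selenoh, a nuclear selenoprotein, was at 75.8, 74.97 and 176 FPKM in co-culture and 153, 312 and 127 FPKM in the controls. Lsm7, a subunit of a ring that binds U6 RNA, was at 13.3, 24.2 and 36.99 FPKM in co-culture and 28.1, 96.1 and 34.2 FPKM in the controls, and Ppih, a spliceosomal cyclophilin, at 11.4, 16.6 and 22.2 FPKM in co-culture and 29.7, 65.8 and 7.79 FPKM in the controls. Uxt, a prefoldin-like chaperone, was at 4.75, 8.58 and 14.1 FPKM in co-culture and 11.7, 27.8 and 8.45 FPKM in the controls, and Gins1, a subunit of the replication fork helicase, at 15.7, 9.105 and 42.98 FPKM in co-culture and 31.9, 51.9 and 35.4 FPKM in the controls. In these 5 genes control 2 was the highest library, and co-culture 3 exceeded co-culture libraries 1 and 2. Selenoh overlaps Gm28635 and Uxt overlaps Elk1 on the same strand, and Ppia has many near-identical copies in the genome, so their levels are uncertain.

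The authors' deposited table of the cocktail experiment, which had its own controls, holds 633 genes, 363 up and 270 down. It shares 66 genes with the co-culture table, 12.1% of the co-culture genes and 10.4% of the cocktail list. Of the shared doubled genes 29 were up with the cocktail and 15 down, and of the shared halved genes 9 were down and 7 up. Acta2 had a log2 fold change of 1.93 in the authors' deposited table, Krt20 one of 1.74, Tnc one of 2.04, Fas one of 2.42 and Ccn1 one of 1.09, all up with the cocktail and doubled in co-culture. Egfr and Kdr were doubled in co-culture and down with the cocktail, at -1.31 and -1.64 in the authors' deposited table. Wnt8b and Eda were halved in co-culture and up with the cocktail, at 1.03 and 1.28 in the authors' deposited table. The 2 tables were normalized separately, and no difference between the experiments was tested.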

How the data were processed

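Poly(A) RNA of aggregates was sequenced in 3 co-culture and 3 control libraries. HISAT2 and the build GRCm38 are given in the submitters' processing notes, and the quantifier is named in none of the sources used here. The authors deposited 1 normalized value per gene and library, taken here as FPKM. The header names no unit, and FPKM was inferred from decimals, unequal totals and the likeness to the other experiment's FPKM. The deposited panel of 12 genes repeats values of this table. The authors also deposited log2 fold changes with FDR p-values for the cocktail experiment, and p-values, q-values and an enrichment ratio for pathways. The 30 further columns with values per library were not used. Depth was not analysed here, so precision rests on the spread of 3 libraries per group. The kit's strand setting is not stated.

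Symbols, positions and lengths came from GENCODE M21. Log2(FPKM + 1) values were fitted in limma 3.58.1 under R 4.3.3, using its intensity trend, for the 425 genes whose group mean reached 1 in co-culture or controls, with Benjamini-Hochberg adjustment over them and a threshold of 0.05. The fit without the block was tested on simulated data with independent noise and no outlying library. The fit with the block was not, so that test does not cover the calls given here. No rescaling was tried, since genes chosen for change cannot set a scale. Deviations from the group means correlated at 0.606, 0.143 and 0.256 between libraries of the same number and at 0.0419 or less otherwise, so numbers were treated as pairs and the block is given beside the fit without it. Those 3 correlations depend on each other and on how the genes were listed.

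Genes were named by rule: the 12 largest rises and 8 largest falls without overlap, members of 37 gene lists, the 10 largest pair 3 differences in each direction, the 5 largest excesses of pair 2 over pair 1, the 10 highest means per group and among the 47 others, and the panel. Called, overlapping and short-transcript genes beyond it were chosen after their values were seen. The members and lists were chosen with earlier results of these data known. Other pseudocounts, filters and left-out libraries were tried. Some listed genes are not reported here.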

Additional observations from a re-analysis of the deposited data

How the results depend on the processing

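The number of genes called depended on the libraries and on the pairing. Without the replicate block 0 of 425 genes were called, and with the block 39. The count was also 0 with a pseudocount of 0.1, without a filter, with a minimum mean of 5 and without the intensity trend, with 97, 121, 44 and 92 genes at an unadjusted p under 0.05 in limma. Leaving out 1 library at a time gave 0 to 330 calls, with 330 without co-culture library 3, 1 without control library 1 and 0 without any of the others. Without both libraries numbered 3, Gm28036 and Gm49450 were called, 2 genes in all. Genes above all controls numbered 57 of 216 at a minimum mean of 5, 167 to 378 without 1 library (378 without co-culture 3) and 394 without both libraries numbered 3, against 165. Genes below all controls numbered 5 at a minimum mean of 5, 26 to 82 without 1 library (82 without co-culture 3, 58 without control 3) and 110 without both, against 25. Fewer libraries and fewer genes raise or lower such counts by construction. Genes higher in pair 3 numbered 163 of 216 at a minimum mean of 5 (75.5%), against 394 of 546. The sign of the fitted difference held for all 53 genes whose fitted values were followed, under each setting in which they were tested. Most of these genes were doubled or halved and were picked for calls or large differences. A sign that held therefore tests little. Of the 53, 43 were tested at a minimum mean of 5 and 50 without co-culture library 2. Genes chosen for change, a low control 3 and an unknown depth limit all of these values.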

Other observations

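Among the inflammation and cytokine genes were 3 that act together, picked here after their values were seen. The cytokine gene Lif was at 1.06, 2.57 and 0.412 FPKM in co-culture and 0.164, 0.227 and 0.101 FPKM in the controls, its receptor gene Lifr at 5.31, 5.45 and 1.55 FPKM in co-culture and 2.43, 0.759 and 1.41 FPKM in the controls and the signal transducer gene Stat3 at 25.8, 13.9 and 4.07 FPKM in co-culture and 9.23, 5.62 and 3.29 FPKM in the controls. All 3 were doubled genes and 0 were called by limma with or without the block. Stat3 and Lifr overlapped between the groups, and Lif did not. In the TGF-beta, BMP and activin list, 10 of 53 genes were in the table, 5 doubled, 3 halved and 2 neither, and 7 of the 10 were lower in pair 3. Fst, the activin inhibitor follistatin, was at 2.25, 15.8 and 0.534 FPKM in co-culture and 0.837, 0.521 and 0.329 FPKM in the controls, and the receptor gene Tgfbr2 at 1.09, 1.405 and 0.218 FPKM in co-culture and 0.284, 0.152 and 0.295 FPKM in the controls. In both, control 1 exceeded co-culture 3. The ligand genes Bmp5 and Gdf10 were halved genes, at 0.569, 0.0548 and 0.481 FPKM in co-culture and 1.39, 0.917 and 0.594 FPKM in the controls and at 0.312, 0.0263 and 0.599 FPKM in co-culture and 0.724, 0.3901 and 1.09 FPKM in the controls. Bmp5 was lower in every co-culture library than in any control.

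Among genes of adhesion to the basement membrane, Itga3, an integrin that binds laminins, was at 26.7, 55.2 and 6.51 FPKM in co-culture and 9.32, 9.05 and 4.15 FPKM in the controls. Co-culture 3 lay within the range of the controls there. Jag1, a Notch ligand, was at 12.7, 17.6 and 4.48 FPKM in co-culture and 6.03, 2.28 and 3.95 FPKM in the controls, with control 1 above co-culture 3. The striated muscle genes Actc1 and Myh7 had their highest values in co-culture 2, where Actc1 was at 6.203 FPKM and Myh7 at 1.998 FPKM, and the other 5 libraries held at most 0.888 FPKM of Actc1 and 0.217 FPKM of Myh7.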
